A study of Mus musculus with 16 samples.

Results

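Expression of 6 regulatory T cell genes was described in tumor RNA of mice with liver metastases: Foxp3, Ikzf2, Ctla4, Icos, Tnfrsf4 and Tnfrsf18. They were chosen by name as genes of regulatory T cells, with earlier results of these data known. They were 6 of the 21959 genes listed for each mouse. All 6 had counts in each of the 16 mice and passed the filter on low counts, as did 13968 genes in all. The RNA came from liver metastases of the mouse colon adenocarcinoma cell line MC38, which had been injected into the hemispleen of male wild-type C57BL/6 mice aged 6 weeks. Each of the 4 groups held 4 mice. Control mice received PBS. The SB525334 group received an oral inhibitor of the type I TGF-β receptor at 20 mg/kg daily, and the KN046 group received intraperitoneal injections of an antibody against both PD-L1 and CTLA4 at 10 mg/kg. The combination group received SB525334 and KN046 at these doses. Whole tumor tissue was sequenced, with no sorting of cells, so that fewer cells of a type and less RNA per cell cannot be told apart in any value below.

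Regulatory T cells are CD4+ T cells that restrain other immune cells. The transcription factor FOXP3 defines them, and they carry high levels of the inhibitory receptor CTLA4, which takes the ligands CD80 and CD86 away from the costimulatory receptor CD28. Activated regulatory T cells in tumors also carry the costimulatory receptors ICOS, OX40 (Tnfrsf4) and GITR (Tnfrsf18), which recently activated conventional T cells express too. Therefore none of the 6 transcripts marks regulatory T cells alone in bulk RNA, although Foxp3 comes closest. The comparisons below asked how the transcripts of these genes, one of which encodes a target of KN046, differed between the treatments.

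Each library held 18368994 to 23877131 counts. Levels are given as CPM, that is, counts relative to the size of the library, after TMM scaling. The 6 genes were scarce, with 13 to 73 counts per mouse for Foxp3, 8 to 90 for Ctla4, 13 to 110 for Icos, 24 to 113 for Tnfrsf4, 32 to 124 for Tnfrsf18 and 77 to 254 for Ikzf2. Per kilobase of exon, the mean level over the 16 mice was 2.21 CPM for Tnfrsf18, 2.05 for Tnfrsf4, 0.844 for Ctla4, 0.56 for Ikzf2, 0.476 for Icos and 0.37 for Foxp3. The median gene tested had 4.12 CPM per kilobase, above all 6 members. Control mice 1 and 2, and control mice 3 and 4, formed pairs of libraries closer than any other within a group. The chi-square per degree of freedom between their counts was 3.51 and 2.22, against 16.84 to 105.71 for the other 22 pairs of mice within a group. The labels list them as 4 samples, and they were counted as such here, but these values do not show 4 independent controls, and control SDs describe a pair of such pairs. Values with each pair merged into 1 sample are given for some of the results below. Libraries also differed in other tissue: 8 hepatocyte genes together had 11900 to 13500 CPM in control mice, 8000 to 15800 in KN046 mice, 283 to 1540 in SB525334 mice and 10.8 to 17.7 in combination mice. A list of 5 epithelial and tumor genes had 148 to 248 CPM in control, 123 to 200 with KN046, 36.6 to 50.6 with SB525334 and 6.44 to 16.1 with the combination. Of these 5, edgeR called 4 lower in the combination than in control, against 9.74% of all genes. With SB525334 it called 2 lower, against 9.22%. The part of these differences in the levels of the members was not tested. Transcripts of splenic mesenchyme were present in all 4 combination mice, with Tlx1 at 1.2 to 1.56 CPM, against at most 0.131 in the other 12 mice, and Nkx2-5 at 0.565 to 1.46 CPM, against at most 0.0862. Both encode transcription factors of the developing spleen, and MC38 cells had been injected into that organ. Of 5 such genes, 3 were called higher in the combination than in control by edgeR, against 1.37% of all genes. Another 1, Cxcl13, was called lower, against 9.74% of all genes. Compared with SB525334, 4 were called higher in the combination, against 0.544% of all genes. The part of splenic tissue in the levels of the 6 members in the combination group was not tested.

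No member passed the threshold of an adjusted p under 0.05 in any of the 7 comparisons by edgeR's quasi-likelihood test. The lowest mean of Ctla4 was 0.63 CPM in the SB525334 group, against 2.42 in control, and the combination group had the highest means of Ctla4, Tnfrsf4 and Icos. Differences of Ctla4 and Tnfrsf4 lay near the threshold and crossed it in some other analyses. Foxp3 had its highest mean in control mice and its lowest with SB525334. Ikzf2 and Tnfrsf18 had nearly the same mean in all 4 groups.

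**Figure D1:**
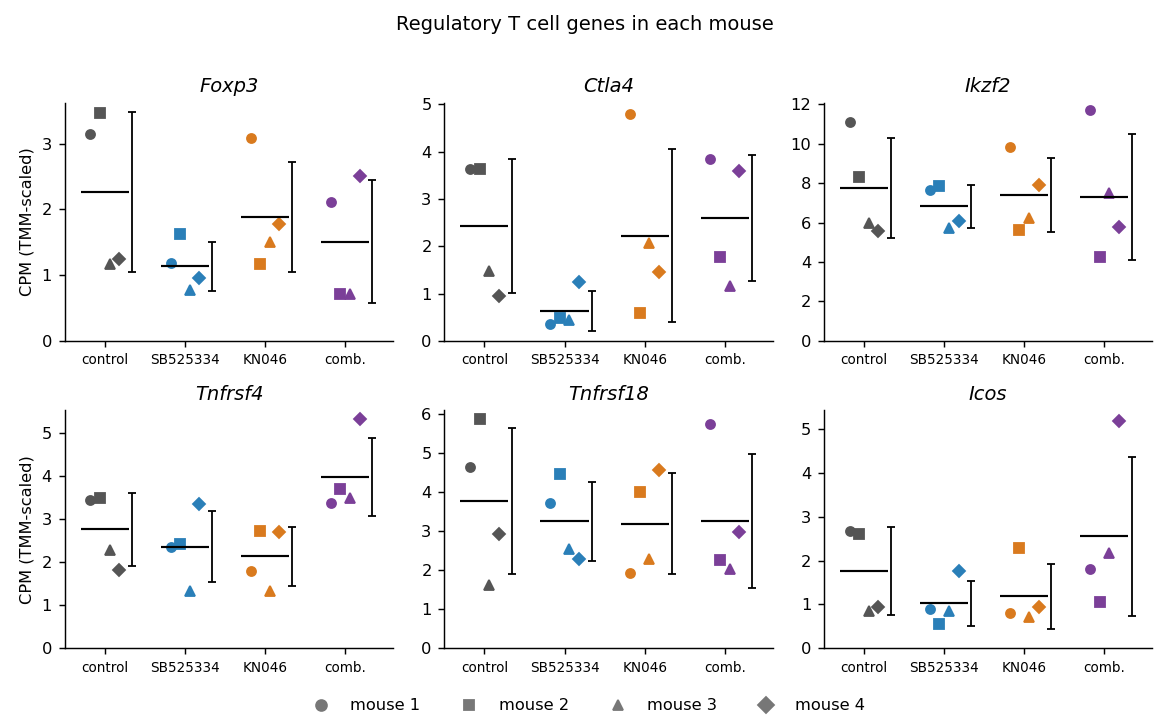
TMM-scaled CPM of the 6 genes (y axes, from 0) in each mouse of the 4 groups (x axes; comb., combination), with symbols for mice 1 to 4, a line at the group mean and a bar of 1 SD to each side. Ctla4 lies at 1.25 CPM or below in all 4 SB525334 mice, and also in control mouse 4, KN046 mouse 2 and combination mouse 3. Tnfrsf4 is at 3.39 CPM or above in all 4 combination mice, and also in control mice 1 and 2.

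Foxp3 (ENSMUSG00000039521, chromosome X, 7439883 to 7461484 of GRCm39, plus strand) encodes the transcription factor that specifies regulatory T cells. Its level was 3.15, 3.46, 1.17 and 1.25 CPM in control mice 1 to 4. With SB525334 it was 1.18, 1.63, 0.775 and 0.948 CPM. The lowest control mice, 3 and 4, lay inside the SB525334 range, and the higher control pair lay above every SB525334 mouse. Foxp3 was 3.09, 1.17, 1.51 and 1.77 CPM with KN046, where mouse 1 was the high one. It was 2.11, 0.717, 0.71 and 2.50 CPM with the combination, where mice 1 and 4 stood above mice 2 and 3. The group means were 2.26 ± 1.21 CPM in control, 1.88 ± 0.842 with KN046, 1.51 ± 0.931 with the combination and 1.13 ± 0.371 with SB525334 (SD, n = 4 each). All groups overlapped. The log2 difference between SB525334 and control was -0.99 (SE 0.48, 95% interval -2 to 0.02, adjusted p = 0.274 from edgeR, 0.542 with the control pairs merged). Between KN046 and control it was -0.27 (95% interval -1.26 to 0.73), and between the combination and control -0.58 (95% interval -1.58 to 0.43). Neighbors in the order of means, and the first and last groups too, did not differ beyond their spread. Some Foxp3 reads cannot be assigned with certainty, because 856 of its 4577 exon bases (18.7%) overlap exons of Ppp1r3f and Ccdc22 on the opposite strand and the strand setting of the counting is not given in the sources used here. Ppp1r3f had 3 to 43 counts per mouse, and Ccdc22 is listed at 0 in all 16 mice. The other 5 members overlap no listed gene.

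Ikzf2 (ENSMUSG00000025997, chromosome 1, 69570373 to 69727004, minus strand) encodes HELIOS, a transcription factor of the Ikaros family that most regulatory T cells of thymic origin express. It was the member with the most counts. Its level was 11.1, 8.33, 5.98 and 5.59 CPM in control mice 1 to 4, and 7.64, 7.88, 5.72 and 6.07 CPM with SB525334. With KN046 it was 9.86, 5.64, 6.26 and 7.9 CPM, and with the combination 11.7, 4.25, 7.48 and 5.80 CPM. The mice with the most Ikzf2 were combination mouse 1, control mouse 1 and KN046 mouse 1, and every pair of groups overlapped. The group means ran from 6.83 ± 1.09 CPM with SB525334 to 7.75 ± 2.54 in control (SD, n = 4), and the log2 differences between groups from -0.19 to 0.12. The 95% interval for SB525334 against control, -0.79 to 0.42, allows a change of less than 1 log2 unit either way.

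Ctla4 (ENSMUSG00000026011, chromosome 1, 60926159 to 60954991, plus strand) encodes the inhibitory receptor that KN046 binds. Its level was 3.63, 3.64, 1.47 and 0.941 CPM in control mice 1 to 4, which again formed 2 pairs. With SB525334 it was 0.362, 0.478, 0.43 and 1.25 CPM. Mouse 4 was the only one of the SB525334 group to reach the control range, and without it the groups would not overlap. Ctla4 was 4.80, 0.583, 2.07 and 1.45 CPM with KN046, a range that spanned nearly those of all other groups. It was 3.85, 1.77, 1.15 and 3.58 CPM with the combination, where 3 of 4 mice lay above every SB525334 mouse. The group means were 2.59 ± 1.33 CPM with the combination, 2.42 ± 1.42 in control, 2.23 ± 1.82 with KN046 and 0.63 ± 0.416 with SB525334 (SD, n = 4 each). The first 3 of these did not differ beyond their spread.

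Against control, Ctla4 with SB525334 had a log2 difference of -1.94 (SE 0.63, 95% interval -3.26 to -0.61, adjusted p = 0.065 from edgeR). DESeq2 gave -1.93 with an adjusted p of 0.0167, and edgeR on the 8 mice of these groups alone gave -1.94 with 0.0392. With each of the 8 mice left out in turn, the adjusted p ran from 0.0296 without SB525334 mouse 4 and 0.0353 without control mouse 4 to 0.2 (edgeR), and with the similar control mice merged it was 0.162. Compared with SB525334 alone, Ctla4 was 2.03 log2 units higher with the combination (SE 0.63, adjusted p = 0.109 from edgeR, 0.0206 from DESeq2). It was 1.81 log2 units higher with KN046 than with SB525334 (SE 0.63, adjusted p = 0.0524 from edgeR, 0.0162 from DESeq2). With 1 mouse left out, the difference between KN046 and SB525334 ran from 1.09 (adjusted p = 0.266, without KN046 mouse 1) to 2.37 (0.0319, without SB525334 mouse 4). That between the combination and SB525334 ran from 1.77 to 2.59 (adjusted p = 0.0465 to 0.309 from edgeR). Thus whether Ctla4 passed the threshold in these 3 comparisons depended on the test and on single mice. The difference between the combination and control was 0.09 (95% interval -1.13 to 1.31), and that between the combination and KN046 was 0.22 (95% interval -1.01 to 1.45). Both intervals include differences of more than 1 log2 unit in either direction.

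Icos (ENSMUSG00000026009, chromosome 1, 61017086 to 61039479, plus strand) encodes a costimulatory receptor of the CD28 family. Cd28, Ctla4 and Icos lie in this order on chromosome 1, with 113.6 kb between Cd28 and Ctla4, 62.1 kb between Ctla4 and Icos, and no other listed gene in between. The level of Icos was 2.67, 2.60, 0.862 and 0.941 CPM in control mice 1 to 4 and 0.904, 0.557, 0.861 and 1.77 CPM with SB525334. With KN046 it was 0.799, 2.29, 0.726 and 0.935 CPM, where mouse 2 stood apart from the other 3. With the combination it was 1.80, 1.05, 2.18 and 5.18 CPM, where mouse 4 held the highest value of the 16 mice. The group means were 2.55 ± 1.82 CPM with the combination, 1.77 ± 1.0 in control, 1.19 ± 0.737 with KN046 and 1.02 ± 0.519 with SB525334 (SD, n = 4 each), and all groups overlapped. The log2 difference between the combination and KN046 was 1.1 (SE 0.54, adjusted p = 0.143 from edgeR) and that between the combination and SB525334 was 1.32 (SE 0.54, adjusted p = 0.361 from edgeR). With 1 mouse left out, the first ran from 0.5 (adjusted p = 0.54 from edgeR, without combination mouse 4) to 1.63 (0.0452, without KN046 mouse 2). The second was 0.71 without combination mouse 4.

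Tnfrsf4 (ENSMUSG00000029075, chromosome 4, 156098293 to 156101069, plus strand) encodes OX40, a costimulatory receptor of the TNF receptor family. Its level was 3.46, 3.5, 2.28 and 1.83 CPM in control mice 1 to 4 and 2.35, 2.43, 1.33 and 3.36 CPM with SB525334. With KN046 it was 1.81, 2.72, 1.34 and 2.7 CPM, and with the combination 3.39, 3.7, 3.49 and 5.33 CPM. All 4 combination mice lay above all 4 KN046 mice and all 4 SB525334 mice, while 2 control mice reached the combination range. Of all genes tested, 7.9% were higher without overlap in the combination than in the KN046 group, and 2.43% than in the SB525334 group. The group means were 3.98 ± 0.909 CPM with the combination, 2.77 ± 0.843 in control, 2.37 ± 0.828 with SB525334 and 2.14 ± 0.683 with KN046 (SD, n = 4 each). The log2 difference between the combination and KN046 was 0.89 (SE 0.32, 95% interval 0.21 to 1.56, adjusted p = 0.0523 from edgeR). DESeq2 gave an adjusted p of 0.0299, and so this difference too passed the threshold under one test and not the other. With edgeR it also passed without combination mouse 1 (adjusted p = 0.0445), KN046 mouse 2 (0.0401) or KN046 mouse 4 (0.0452), and reached 0.149 without combination mouse 4. Between the combination and SB525334 the log2 difference was 0.75 (SE 0.32, adjusted p = 0.399 from edgeR), and between the combination and control it was 0.52 (SE 0.32, adjusted p = 0.357 from edgeR).

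Tnfrsf18 (ENSMUSG00000041954, chromosome 4, 156110621 to 156113352, plus strand) encodes GITR and lies 9.6 kb from Tnfrsf4. Its level was 4.64, 5.87, 1.62 and 2.93 CPM in control mice 1 to 4 and 3.71, 4.46, 2.54 and 2.28 CPM with SB525334. With KN046 it was 1.92, 3.99, 2.29 and 4.57 CPM, and with the combination 5.75, 2.26, 2.02 and 2.97 CPM. Single mice of each group spanned much of the whole range, and the group means, from 3.19 ± 1.29 with KN046 to 3.76 ± 1.87 in control (SD, n = 4), did not differ beyond it. The log2 differences between groups ran from -0.24 to 0.03, with 95% intervals that lay between -1.11 and 0.9. Although its neighbor Tnfrsf4 was high in all combination mice, Tnfrsf18 was high in combination mouse 1 alone.

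Counted over the comparisons, 0 of the 6 members were called with SB525334 against control, where 9.61% of all 13968 genes tested were called. By unadjusted p under 0.05, 1 member passed (Ctla4), and DESeq2 called 1 (Ctla4). All 6 differences were below 0, with a median of -0.51 log2 units against 0 for all genes tested. With KN046 against control, 0 of 6 members were called against 4% of all genes (559 genes, but 0 with the similar control mice merged and 21 without KN046 mouse 1), 0 had an unadjusted p under 0.05 and DESeq2 called 0, and the median difference was -0.25 against -0.03 for all genes. For the combination against control these counts were 0 of 6 against 11.1%, 0 and 0, and the median was 0 against 0.01. All 3 comparisons share the control mice.

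In the combination against KN046, 0 of 6 members were called against 24.4% of all genes tested, 1 had an unadjusted p under 0.05 (Tnfrsf4) and DESeq2 called 1 (Tnfrsf4). In the combination against SB525334, 0 of 6 were called against 3.57%, 3 had an unadjusted p under 0.05 (Ctla4, Icos and Tnfrsf4) and DESeq2 called 1 (Ctla4). In KN046 against SB525334, 0 of 6 were called against 20%, 1 had an unadjusted p under 0.05 (Ctla4) and DESeq2 called 1 (Ctla4). The interaction asks whether the difference made by SB525334 was another with KN046 than without it. Here 0 of 6 members were called against 4.28% of all genes, 3 had an unadjusted p under 0.05 and DESeq2 called 0. These 3 were Ctla4 at 2.16 log2 units (SE 0.86, adjusted p = 0.196 from edgeR), Icos at 1.9 (SE 0.77, adjusted p = 0.208) and Tnfrsf4 at 1.11 (SE 0.45, adjusted p = 0.208). For each of these genes the mean with SB525334 was below control, and the mean with the combination was above that with KN046.

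**Figure D2:**
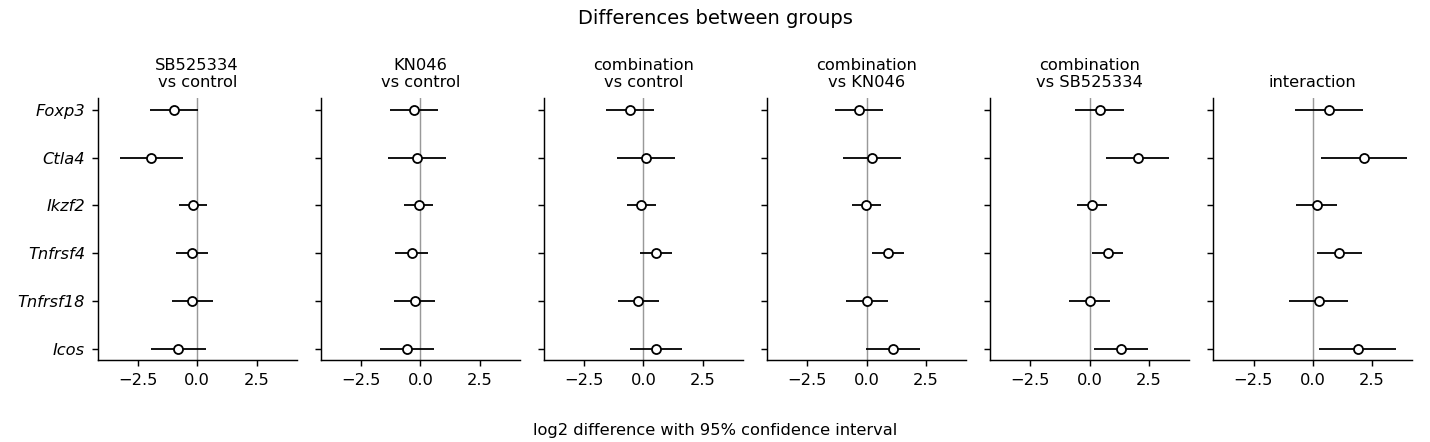
Log2 differences (x axes, edgeR) of the 6 genes (y axis) in 5 comparisons of groups and in the interaction of SB525334 and KN046, each with its 95% confidence interval before any adjustment for the number of genes. The intervals of Ctla4 exclude 0 for SB525334 against control, for the combination against SB525334 and for the interaction, and no gene passed the adjusted threshold.

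The members were next set beside T cell genes, since T cells express all 6. The part of other cells of the tumor in their levels was not tested. Of 8 listed T cell genes, the table holds Cd3d, Cd3e, Cd3g, Cd5 and Cd6, of which the first 3 encode chains of the CD3 complex of the T cell receptor. Their summed level was 15.4 to 20.8 CPM in control mice, 9.08 to 15.4 in SB525334 mice, 2.68 to 7.78 in KN046 mice and 14.8 to 29.2 in combination mice. All 4 KN046 mice lay below every other mouse. With KN046, 3 of the 5 were lower than in control (edgeR), against 2.4% of all genes called lower: Cd3d by -1.89 log2 units, Cd3g by -1.84 and Cd3e by -1.57. With each of the 8 mice left out in turn, Cd3g was called in 7 of 8 fits, Cd3d in 3 and Cd3e in 2, with the highest adjusted p without KN046 mouse 1 (0.0629 to 0.0857), and none of the 3 was called when the similar control mice were merged (0.165 to 0.212, edgeR). All 5 were higher in the combination than with KN046, by 1.37 (Cd3e) to 2.55 (Cd3d) log2 units, where 9.89% of all genes were called higher, and 2 of the 5, Cd3d and Cd3g, were still called without combination mice 1 and 4. With SB525334 against control, 0 of the 5 were called by edgeR, 0 by DESeq2 and 2 had an unadjusted p under 0.05, and all 5 differences were below 0 (median -0.57). Cd8a and Cd8b1, which encode the CD8 co-receptor, were likewise lower with KN046 than in control (-1.42 and -2.11) and higher in the combination than with KN046 (1.47 and 2.41), and Cd4 was called in the second comparison (1.36), in 4 of 8 fits that left out 1 mouse. Without combination mice 1 and 4 the difference of Cd4 was 0.68 (adjusted p = 0.332 from edgeR). In KN046 against control, Cd8a was called in 4 and Cd8b1 in 6 of 8 fits that left out 1 mouse. With the similar control mice merged, neither was called there (adjusted p = 0.196 and 0.171 from edgeR). Cd3 transcripts thus had their lowest level with KN046, as did the means of Tnfrsf4 and Tnfrsf18. The lowest means of Foxp3, Ctla4, Icos and Ikzf2 were those of the SB525334 group. No difference of a member between groups was called by edgeR.

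The ratio of Foxp3 to the summed CPM of the 5 T cell genes does not depend on the scaling of the libraries. It was 0.163, 0.166, 0.0701 and 0.0814 in control mice 1 to 4 and 0.0765, 0.18, 0.0811 and 0.0726 with SB525334. With KN046 it was 0.682, 0.15, 0.562 and 0.236, and with the combination 0.0837, 0.0485, 0.0432 and 0.0856. Every KN046 mouse lay above every combination mouse, and 3 of 4 lay above all mice of the other groups. However, the T cell sum alone separated KN046 (2.68 to 7.78 CPM) from the combination (14.8 to 29.2 CPM). A gene with the same level in both groups would therefore also have separated ratios. Foxp3 itself differed by -0.31 log2 units between these groups, so that most of the difference in ratio lay in the T cell sum. The combination had a ratio 2.46 log2 units below that of KN046 (SE 0.58, exact two-sided permutation p = 0.0286, the smallest that 4 against 4 mice allow, and adjusted p = 0.171 over 12 tests). Between KN046 and control the log2 difference was 1.61 (SE 0.61, exact permutation p = 0.0857, adjusted p = 0.171), and between KN046 and SB525334 it was 1.85 (SE 0.6, exact permutation p = 0.0571, adjusted p = 0.171). No ratio passed an adjusted p of 0.05, and 1 test of this size could not do so alone.

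The ratio of Ctla4 to the same genes was 0.188, 0.175, 0.0884 and 0.061 in control mice, and 0.0235, 0.0526, 0.045 and 0.0957 with SB525334. With KN046 it was 1.06, 0.075, 0.771 and 0.194, a spread of more than 10-fold within 1 group, and with the combination 0.153, 0.119, 0.0698 and 0.123. In the SB525334 group the ratio lay 1.26 log2 units below control (SE 0.57, exact permutation p = 0.0857, adjusted p = 0.171) and 1.22 below the combination (SE 0.48, exact permutation p = 0.0571, adjusted p = 0.171). It was 2.78 log2 units higher with KN046 than with SB525334 (SE 0.98, exact permutation p = 0.0571, adjusted p = 0.171). Combination and control differed by -0.05 log2 units (SE 0.46, exact permutation p = 0.943). All 6 comparisons of this ratio had overlapping groups. Tests against control, for the Foxp3 and the Ctla4 ratio alike, counted its 4 mice as independent, although their libraries formed similar pairs. The ratios were not tested with these pairs merged, so that the SEs and p-values against control may be too small. For the other 4 members, whose ratios were not tested, the mean ratio was also highest with KN046. It was 1.57 ± 0.802 for Ikzf2, 0.403 ± 0.0683 for Tnfrsf4, 0.6 ± 0.186 for Tnfrsf18 and 0.217 ± 0.0794 for Icos (SD, n = 4). All these ratios share the T cell sum, with a mean of 5.62 CPM with KN046 and 11.8 to 21.4 CPM in the other groups. No member had its highest mean CPM with KN046, so that this order of ratios came from the shared sum.

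**Figure D3:**
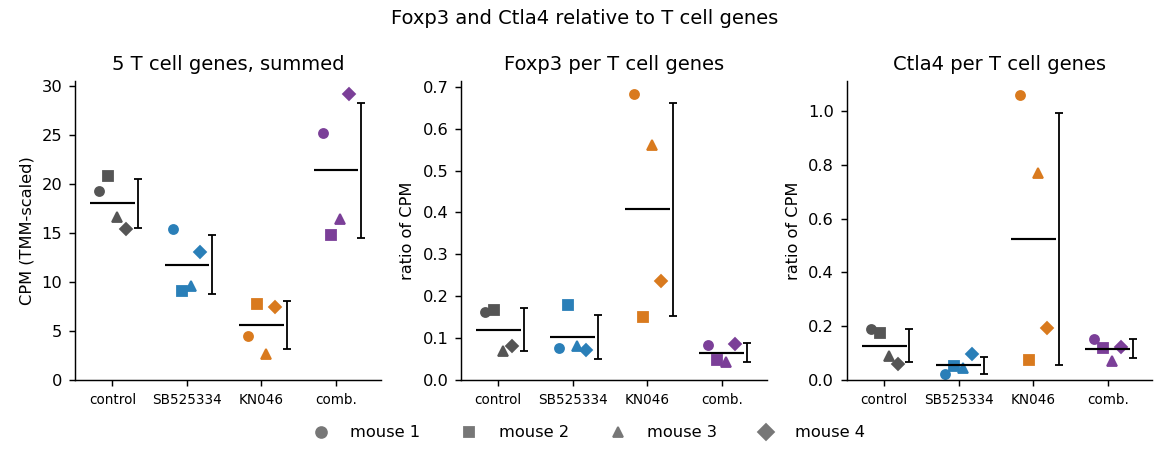
Summed TMM-scaled CPM of Cd3d, Cd3e, Cd3g, Cd5 and Cd6 (left), and Foxp3 (middle) and Ctla4 (right) as ratios to that sum, in each mouse (symbols) of the 4 groups, with a line at the mean and a bar of 1 SD to each side. The T cell genes are lowest in the 4 KN046 mice, between 2.68 and 7.78 CPM, and the Foxp3 ratio is above 0.5 in KN046 mice 1 and 3 and below 0.1 in all combination mice.

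Ligands and relatives of the members were described from a list of 8 genes. Cd80 and Cd86 encode the shared ligands of CD28 and CTLA4, Icosl, Tnfsf4 and Tnfsf18 the ligands of ICOS, OX40 and GITR, and Cd274 and Pdcd1 encode PD-L1, the other target of KN046, and its receptor PD-1. Cd274 fell with SB525334, to 5.66 ± 1.08 CPM from 13.5 ± 4.07 in control (SD, n = 4; log2 difference -1.26, SE 0.29, adjusted p = 0.00681 from edgeR), and was the only 1 of the 8 called there, against 9.22% of all genes called lower. It was 12.9 ± 5.91 CPM with the combination, 1.19 log2 units above SB525334 (SE 0.29, adjusted p = 0.0249 from edgeR, where 0.544% of all genes were called higher) and 0.86 above KN046 (SE 0.29, adjusted p = 0.0407). Like Ctla4, Cd274 had its lowest mean in the SB525334 group, but its mean with KN046, 7.12 ± 0.912 CPM, was also low. The calls of the combination rested on combination mice 1 and 4, without which the differences were 0.48 and 0.15 log2 units (adjusted p = 0.519 and 0.724 from edgeR).

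Pdcd1 was 5.44 ± 0.257 CPM in control, 4.06 ± 0.891 after SB525334, 2.14 ± 0.866 after KN046 and 6.07 ± 1.41 after the combination (SD, n = 4). It was lower with KN046 than in control (-1.34 log2 units, adjusted p = 0.0232 from edgeR; 0.0702 without KN046 mouse 1 and 0.196 with the similar control mice merged) and than with SB525334 (-0.92, adjusted p = 0.027). In the combination it was higher than with KN046 (1.5, adjusted p = 0.000698). Cd28 was 2.23 ± 0.718 CPM in control, 1.19 ± 0.36 after SB525334, 1.14 ± 0.221 after KN046 and 2.49 ± 1.27 after the combination (SD, n = 4), and was called in the combination against KN046 (1.13, adjusted p = 0.0438 from edgeR). The list thus had 3 of 8 genes higher in the combination than with KN046, Pdcd1, Cd274 and Cd28, against 9.89% of all genes. Without combination mice 1 and 4, Pdcd1 was still called.

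By edgeR the 5 ligands of the members were called in 0 of the 7 comparisons, where 3.57% to 24.4% of all genes were called, with an unadjusted p under 0.05 in 7 tests, 3 of Cd80, 2 of Cd86 and 2 of Tnfsf18. Cd80 ranged over the groups from 2.97 ± 1.44 to 5.05 ± 1.35 CPM, and Cd86 from 8.37 ± 2.74 to 12.9 ± 4.26 (SD, n = 4), both with the highest mean in control and the lowest with KN046. Icosl ranged from 9.52 ± 2.73 to 12.3 ± 1.3 CPM. Tnfsf4 and Tnfsf18 were near the limit of detection, with 1 to 21 and 0 to 20 counts per mouse, so that differences between groups were hardly detectable at this depth.

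Of 25 other genes known from regulatory T cells, 20 passed the filter. With SB525334, 4 of the 20 were lower than in control (edgeR) and 0 higher, against 9.22% of all genes called lower. These were Lrrc32 (-1.05 log2 units, adjusted p = 0.00129), which encodes GARP and displays latent TGF-β on the cell surface, Tigit (-0.88, adjusted p = 0.0331), which encodes an inhibitory receptor, Nrp1 (-0.65, adjusted p = 0.0283) and Rora (-1.98, adjusted p = 6.76e-05). Lrrc32 was 10.8 ± 2.77 CPM with SB525334 and 22.3 ± 1.53 in control (SD, n = 4), and Tigit 2.91 ± 0.624 and 5.36 ± 0.199. Lrrc32, Nrp1 and Rora were also lower in the combination than in control, by -0.96, -0.88 and -2.08 log2 units, as was Socs2 by -1.23, against 9.74% of all genes. These 4 are widely expressed outside T cells, among others in endothelial cells (Lrrc32, Nrp1) and in liver (Rora, Socs2), and the hepatocyte genes were lower in the same comparisons, at 283 to 1540 CPM with SB525334 and 10.8 to 17.7 CPM with the combination. The part of liver tissue in these differences was not tested. With each of the 8 mice left out in turn, Tigit was called in 1 of 8 fits and Nrp1 in 3. When the similar control mice were merged, Tigit and Nrp1 were no longer called with SB525334 (adjusted p = 0.16 and 0.115 from edgeR).

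With KN046, 2 of the 20 were lower than in control against 2.4% of all genes, Il2ra and Cd83. Il2ra, which encodes the high-affinity subunit of the interleukin-2 receptor that regulatory T cells carry throughout, was 0.419 ± 0.328 CPM with KN046 and 2.1 ± 1.29 in control (SD, n = 4; log2 difference -2.3, adjusted p = 0.0412 from edgeR). Il2ra was called in 3 of 8 fits that left out 1 mouse and Cd83 in 1 of 8, with the highest adjusted p, 0.137 and 0.153, without KN046 mouse 1. Neither was called with the similar control mice merged (adjusted p = 0.212 and 0.268 from edgeR). In the combination 7 of the 20 were higher than with KN046 against 9.89% of all genes: Tnfrsf9 (0.96), Cd83 (0.72), Il2rb (1.14), Izumo1r (3.07), Il2ra (1.84), Ccr8 (1.58) and Gata3 (0.73 log2 units). Tnfrsf9 encodes the costimulatory receptor 4-1BB, and Ccr8 a chemokine receptor found on regulatory T cells of tumors. The 3 largest differences rested on few counts, with 0 to 6 per KN046 mouse for Izumo1r, 2 to 15 for Il2ra and 2 to 12 for Ccr8. With each of the 8 mice left out in turn, Tnfrsf9 and Cd83 were called in all 8 fits. Il2rb was called in 6, Il2ra and Izumo1r in 5, and Ccr8 and Gata3 in 2. Foxp3 itself had a difference of -0.31 in this comparison (95% interval -1.32 to 0.7). Lrrc32, Socs2 and Rora were lower there, by -0.92, -1.62 and -2.24, against 14.5% of all genes. Without combination mice 1 and 4, the edgeR fit called 1 of the 7, Cd83 (0.59). Of the others, Gata3 (0.79) and Tnfrsf9 (0.76) had differences about as large as before, while Il2ra (1.39), Il2rb (0.5), Ccr8 (0.86) and Izumo1r (1.62) had smaller ones.

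In KN046 against SB525334, Lrrc32 (1.01), Socs2 (1.17) and Rora (2.14 log2 units) were higher, against 13.5% of all genes, and Cd83 (-0.82) was lower, against 6.48%. In the combination against SB525334, 0 of the 20 were called by edgeR, 4 had an unadjusted p under 0.05, and DESeq2 called 1. Another 5 genes of the list did not pass the filter, and among them Il10 had 0 to 9 counts per mouse and Gpr83 0 to 2. In the interaction 3 of the 20 were called higher, against 1.73% of all genes: Tnfrsf9 (1.62), Ccr8 (2.78) and Tigit (1.38). Without combination mice 1 and 4 this count was 0, with differences of 1.41, 2.05 and 0.94 for these genes. With the similar control mice merged, Tnfrsf9, Ccr8 and Tigit were not called in the interaction (adjusted p = 0.0535, 0.118 and 0.13 from edgeR).

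Lists of 2 pathways that feed Foxp3 were called about as often as all genes or less in the combination against KN046, with 1 of 7 and 2 of 11 genes against 24.4%, and the second list had 2 of 11 against 20% in KN046 against SB525334. Of 8 genes of the interleukin-2 and STAT5 axis 7 were tested, and Il2rg, which encodes the shared receptor chain, was called in the combination against KN046 (0.54 log2 units higher, adjusted p = 0.0157 from edgeR). Of 11 genes of TGF-β input to Foxp3 induction, 1 was called with SB525334 against control, where 9.61% of all genes were called. In the combination against control it was also 1, against 11.1% of all genes. Both times this was Smad7, a target gene and inhibitor of the TGF-β pathway, which was lower (-0.55 and -0.49 log2 units). Smad7 was also lower in the combination than with KN046 (-0.44). The part of liver tissue in the differences of Smad7 was not tested. Tgfb1, the main ligand, was 0.38 log2 units higher in the combination than with KN046. Smad3 was 0.28 log2 units lower and Smad7 0.49 higher with KN046 than with SB525334.

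Within the control and combination groups, several members were high in the same mice. Control mice 1 and 2 had more of all 6 genes than control mice 3 and 4, and combination mice 1 and 4 had more Foxp3 and Ctla4 than mice 2 and 3. Combination mice 1 and 4 were also the mice with the most B cell transcripts, with 19.6 and 57.5 CPM over 6 B cell genes, against 2.7 and 2.18 CPM in combination mice 2 and 3 and 0.775 to 10.1 in the other 12 mice. The 5 genes of splenic mesenchyme together had 12.7 and 18.6 CPM in these 2 mice, 2.98 and 3.11 CPM in the other combination mice and 0.0904 to 7.76 elsewhere. Most of the sum in control mice was Cxcl13 (6.26 ± 0.374 CPM, SD, n = 4), whereas Tlx1 and Nkx2-5 marked all 4 combination mice, so that leaving out mice 1 and 4 does not remove this signal. The part of lymphoid tissue in the levels of the members was not tested. Without these 2 mice, Foxp3 in the combination differed from control by -1.65 log2 units (adjusted p = 0.0678 from edgeR), Ctla4 by -0.73 (0.542) and Tnfrsf4 by 0.38 (0.553). Against SB525334, Ctla4 was then 1.2 log2 units higher (adjusted p = 0.56), so that the large difference of Ctla4 between these groups also rested in part on combination mice 1 and 4.

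**Figure D4:**
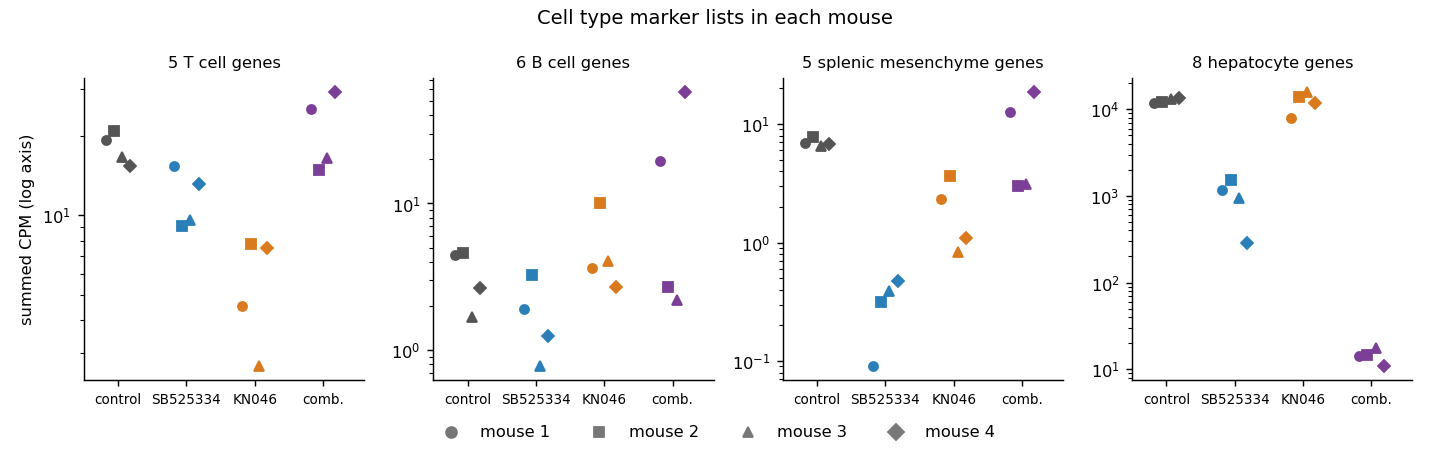
Summed TMM-scaled CPM (y axes, log scale) of 5 T cell, 6 B cell, 5 splenic mesenchyme and 8 hepatocyte genes in each mouse (symbols) of the 4 groups. The B cell sum reaches 19.6 and 57.5 CPM in combination mice 1 and 4, and the hepatocyte sum is at most 17.7 CPM in all 4 combination mice.

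Foxp3 and Ctla4 were also set beside a library property that concerns all genes, the balance of genes with long and short exon sequence. Among 12822 genes over 1 CPM, 2565 were in the longest 20% (from 10113 exon bases) and 2567 in the shortest 20% (up to 3595 bases). The balance was the median log2 deviation of the first set minus that of the second. It was 0.17 and 0.16 in control mice 1 and 2, -0.19 and -0.2 in control mice 3 and 4, and highest at 0.37 in KN046 mouse 1, the mouse with the most Ctla4. The SB525334 mice lay between -0.06 and 0.01, the other KN046 mice between 0.05 and 0.15, and the combination mice at 0.16, -0.37, -0.11 and -0.18. Combination mouse 4 was high in Foxp3 and Ctla4 at a balance of -0.18, and KN046 mouse 2 was low at 0.15. Ctla4, with 2330 exon bases, belongs to the shortest 20% itself and Foxp3, with 4577, to neither. The part of this balance in the levels of the members was not tested.

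**Figure D5:**
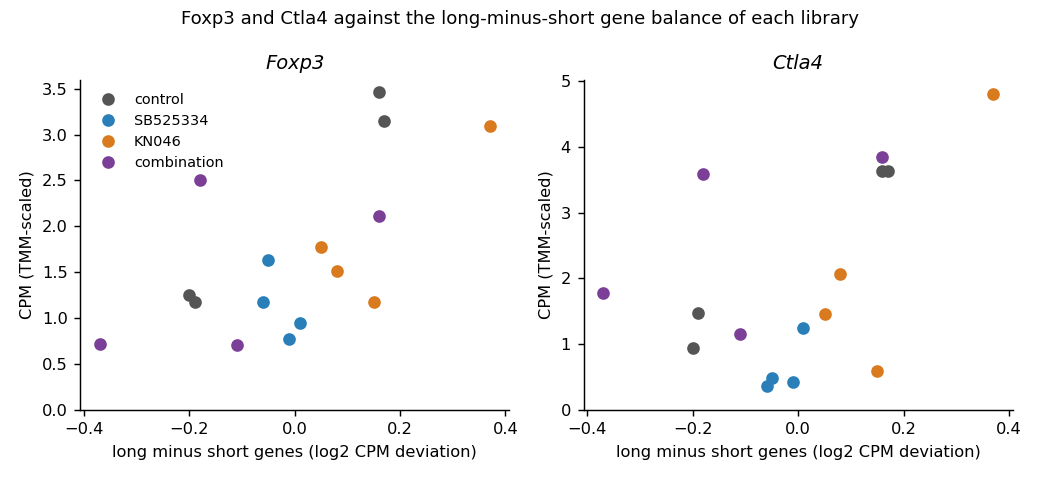
Foxp3 (left) and Ctla4 (right) in TMM-scaled CPM (y axes, from 0) against the difference in median log2 CPM deviation between the longest and the shortest 20% of genes (x axes). Each point is 1 mouse, colored by group. Control mice fall into a pair near 0.17 with high levels and a pair near -0.2 with low levels, and the SB525334 mice lie close to 0.

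Among the genes with a pattern most like Foxp3 over the 16 mice, by Pearson's correlation of log2(CPM + 1), were Cd55 (r = 0.881), Dennd4b (0.871), Ggnbp1 (0.866) and Trappc8 (0.865). Ctla4 followed at rank 49 (r = 0.771) and Ikzf2 at rank 312 (0.679), while Tnfrsf18 (0.512), Icos (0.363) and Tnfrsf4 (0.228) ranked lower among the 13968 genes. The correlation of Foxp3 was 0.365 with Cd3e, 0.048 with Cd3d and 0.349 with Il2ra. For Ctla4 the most alike were Stat3 (r = 0.886), Casp4 (0.879), Cytip (0.853), Crtam (0.82) and Pmaip1 (0.819), and Foxp3 was at rank 14. These values are descriptions over 16 mice, which include the 2 pairs of very similar control libraries and share the length balance described above. Over the mice Foxp3 and Ctla4 were more like each other than either was like Cd3d, Cd3e or Cd3g.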

How the data were processed

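Tumor RNA of 16 mice, 4 per group, was analyzed from per-gene tables. The authors used cutadapt 2.7 for trimming, HISAT2 2.2.1 for alignment (GRCm39) and HTSeq 2.0.4 for counting. They deposited raw counts, used here, and counts normalized with DESeq2 1.38.3, not used here. The strand setting is not given in the sources used here. GENCODE release M39 held 21770 of 21959 identifiers.

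The counts were tested with edgeR 4.0.16 under R 4.3.3. Low counts were filtered with filterByExpr (minimum 10), libraries were scaled by TMM, and a quasi-likelihood model with group as the only factor was fitted to all 16 mice. P-values were adjusted by Benjamini-Hochberg over all genes tested (threshold 0.05), and the code was tested on simulated data. Ratios to T cell genes were compared by exact two-sided permutation tests. Named besides the 6 members are list genes called at the threshold (up to 6 per list and comparison by smallest p, plus Gata3, named after its value was seen), the partners and the 5 genes most alike, of which 1 is not reported here. The members and lists were chosen with earlier results of these data known. Alternatives were DESeq2 1.42.0, other scalings and filters, the 8 mice compared alone, the replicate number as a block, merged control pairs and each mouse left out. Chosen after seeing the data were leaving out combination mice 1 and 4, and the study's thresholds. Depth left 8 to 254 counts per member and mouse. Nothing in the labels says whether the libraries of a group were prepared independently, and p-values measure the spread between these samples.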

Additional observations from a re-analysis of the deposited data

Results flagged for a closer look

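Of 64 groups of 4 mice, 5 held a single mouse that stood far from the other 3 by Dixon's criterion, where chance gives about 1 in 20, or 3.2. Ctla4 was 1.25 CPM in SB525334 mouse 4, against 0.362 to 0.478 in the other 3. Tnfrsf4 was 5.33 CPM in combination mouse 4, against 3.39 to 3.7. Icos was 2.29 CPM in KN046 mouse 2, against 0.726 to 0.935. The ratio of Foxp3 to T cell genes was 0.18 in SB525334 mouse 2, against 0.0726 to 0.0811. Tnfsf4, the ligand of OX40, was 1.05 CPM in combination mouse 2.

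The difference made by SB525334 was another with KN046 than without it for 12 genes of the T cell, CD4 and CD8, partner and other regulatory T cell lists, by the interaction in edgeR at an adjusted p under 0.05. All 12 were higher, as were 1.73% of all genes tested. Of the remaining lists, 8 of 8 hepatocyte and 2 of 5 epithelial and tumor genes were called lower, and 1 gene each of the helper T cell, NK cell and splenic mesenchyme lists was called higher. In log2 units it was 2.81 for Cd3g, 2.99 for Cd3d, 2.12 for Cd3e, 2.44 for Cd5, 3.1 for Cd8b1 and 1.95 for Cd8a among T cell genes. Among the partners it was 2.12 for Cd274, 2.03 for Cd28 and 1.92 for Pdcd1. Among other regulatory T cell genes it was 1.62 for Tnfrsf9, 2.78 for Ccr8 and 1.38 for Tigit. With each of the 16 mice left out in turn, Cd3e was called in 13 fits, Cd5 in 7, Tigit in 5, Cd28 in 4 and Ccr8 in 2, and the other 7 genes in all 16. The highest adjusted p of these 5 was 0.0545 for Cd3e without combination mouse 1, 0.105 for Ccr8 without control mouse 1, and 0.0941, 0.103 and 0.109 for Cd5, Tigit and Cd28 without combination mouse 4. Without combination mice 1 and 4, 3 of the 12 were still called, Cd3d, Cd3g and Cd8b1, while Cd274 (1.39), Pdcd1 (1.61) and Tnfrsf9 (1.41) were not called (adjusted p = 0.0597, 0.0697 and 0.0748). With the similar control mice merged, Tnfrsf9 (adjusted p = 0.0535 from edgeR), Cd3e (0.0668) and Cd5 (0.0971) were not called. Nor were Cd28 (0.117), Ccr8 (0.118) and Tigit (0.13), while Cd3d, Cd3g, Cd8a, Cd8b1, Cd274 and Pdcd1 still were. None of the 6 members was among the 12 genes.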

How the results depend on the processing

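Counts of 8 to 254 per member and mouse, 4 mice per group and 2 pairs of similar control libraries limit the precision. No member was called in KN046 or the combination against control under any alternative run. Members called, 0 in all 7 comparisons, became 1 with DESeq2 in SB525334 against control, the combination against KN046, the combination against SB525334 and KN046 against SB525334. The study's thresholds (unadjusted p and fold) gave 1, 1, 2 and 1 in these and 3 in the interaction. The 8 mice alone gave 1 for SB525334 against control. With 1 mouse left out the counts ranged from 0 to 1 for SB525334 against control, 0 to 2 for the combination against KN046, and 0 to 1 for the combination or KN046 against SB525334. The replicate numbers do not pair the mice (24 correlations of deviations from -0.37 to 0.407, 7 over 0.1). The replicate block gave 1 call, Tnfrsf4 in the combination against KN046 (0.92, adjusted p = 0.0327 from edgeR), and changed sign for Ctla4 in the combination against control (-0.01) and Tnfrsf18 in the combination against KN046 (-0.02) and in KN046 against SB525334 (0.01). The causes of these changes were not tested.

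Other signs changed too, in log2 units. Ikzf2 in the combination against KN046 was 0.01 with upper-quartile scaling and 0.02 with total counts. Without combination mice 1 and 4, the combination differed from control by -0.73 for Ctla4 and -0.13 for Icos, from KN046 by -0.61 for Ctla4 and -0.58 for Tnfrsf18, and from SB525334 by -0.67 for Foxp3 and -0.22 for Ikzf2, with interactions of -0.41 for Foxp3, -0.17 for Ikzf2 and -0.38 for Tnfrsf18. The Ctla4 ratio in the combination against control was 0.46 over Cd3e alone and -0.35 to 0.19 with 1 mouse left out. With 1 mouse left out, SB525334 against control ranged from -0.31 to 0.05 for Ikzf2 and -0.46 to 0.09 for Tnfrsf18. KN046 against control ranged from -0.61 to 0.02 for Foxp3, -0.84 to 0.2 for Ctla4, -0.23 to 0.17 for Ikzf2 and -0.49 to 0.06 for Tnfrsf18. The combination against control ranged from -0.16 to 0.36 for Ctla4, -0.39 to 0.14 for Ikzf2, -0.61 to 0.08 for Tnfrsf18 and -0.07 to 0.8 for Icos. The combination against KN046 ranged from -0.66 to 0.05 for Foxp3, -0.1 to 0.94 for Ctla4, -0.34 to 0.18 for Ikzf2 and -0.39 to 0.26 for Tnfrsf18. The combination against SB525334 ranged from -0.24 to 0.28 for Ikzf2. KN046 against SB525334 ranged from -0.06 to 0.23 for Ikzf2, -0.34 to 0.08 for Tnfrsf4, -0.25 to 0.17 for Tnfrsf18 and -0.31 to 0.62 for Icos, and the interaction from -0.2 to 0.35 for Ikzf2 and -0.22 to 0.49 for Tnfrsf18.

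Of all genes tested, KN046 against control called 559, but 1250 with DESeq2, 255 with total counts, 75 with the 8 mice alone, 0 with the control pairs merged, and 21 (without KN046 mouse 1) to 2096 (without KN046 mouse 2) with 1 mouse left out. The combination against KN046 called 3406, but 1855 with the 8 mice alone and 1920 by the study's thresholds. The combination against SB525334 called 499, but 294 with the 8 mice alone, 297 without combination mice 1 and 4 and 952 by the study's thresholds. KN046 against SB525334 called 2787, but 1851 with the 8 mice alone, 1695 by the study's thresholds and 1796 without SB525334 mouse 1. The interaction called 598, but 298 with the control pairs merged, 957 with DESeq2, 227 without combination mice 1 and 4, 1254 by the study's thresholds and 377 to 944 with 1 mouse left out.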
